A study of Mus musculus with 67 samples.

Results

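The basic helix-loop-helix (bHLH) transcription factor genes Hand2, Hand1, Twist1 and Twist2 were followed by RNA-seq in mouse forelimb buds with and without Gli3. They were taken by gene name from the deposited gene tables, where these 4 rows stand among 46983 gene IDs, and each was found once. The tables cover 14 libraries. E9.25 libraries came from whole forelimb buds of embryos with 21 to 23 somites, before Hedgehog (HH) signaling begins in the limb, with 3 WT and 4 Gli3-/- replicates. E10.5 libraries came from the anterior part of forelimb buds of embryos with 32 to 35 somites, with HH signaling under way, with 4 WT and 3 Gli3-/- replicates. Gli3-/- embryos were homozygous for the Xt-J allele, a deletion that ends GLI3 function in every cell, and all embryos were on the Swiss Webster background. Each replicate was a pool, by the sample records of 4 bud pairs in the E9.25 libraries and 2 in those of E10.5. Stage and dissection changed together, so that an effect of age and an effect of leaving out the posterior bud cannot be told apart.

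HAND and TWIST proteins bind E-box sequences in DNA as pairs, with one another or with the widely made E proteins, and the choice of partner and the relative amounts of the factors decide what they do. ID proteins lack the DNA-binding part and take E proteins out of these pairs. In the limb bud Hand2 is a posterior determinant that is needed for Shh transcription. Mutual antagonism of Hand2 and Gli3 has been proposed to begin before HH signaling. The authors report Hand2 in nearly the whole early bud in both genotypes and conclude that GLI3 does not repress it before HH signaling. Twist1 is made throughout limb mesenchyme and is needed for bud outgrowth and the signaling loop between mesenchyme and the apical ridge. Hand1 is best known in the heart and the lateral plate, and Twist2, also called Dermo1, in dermis and other mesenchyme.

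Depth was estimated at 38.1 to 56.8 M reads per library, and 1 TPM (a length-scaled level that sums to the same total in every library) stood for 20.7 to 29.3 reads per kilobase, so that Hand1 at E10.5 rests on few reads and the other genes on many. Gli3 itself ranged from 15.8 to 44.6 TPM in E9.25 WT, from 14.3 to 20.8 TPM in E9.25 Gli3-/-, from 73.4 to 89.7 TPM in E10.5 WT and from 38.7 to 40.9 TPM in E10.5 Gli3-/-. Only the library labelled E9.25 WT replicate 2, at 15.8 TPM, lay within the range of the mutants of its stage, and the E9.25 genotype differences of the Hand genes are given below also without it. That library also had the lowest estimated depth of all, 38.1 M reads, and the fewest genes with at least 1 TPM, 13276. Limb mesenchyme markers were present in every group, with Prrx1 at mean levels of 100.0 TPM in E9.25 WT, 93.1 TPM in E9.25 Gli3-/-, 260.5 TPM in E10.5 WT and 175.8 TPM in E10.5 Gli3-/-.

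In mm10 coordinates, Hand2 (ENSMUSG00000038193.3) lies on the plus strand at chr8:57320983-57324517 and Hand1 (ENSMUSG00000037335.13) on the minus strand at chr11:57828705-57832818. Twist1 (ENSMUSG00000035799.5) lies on the plus strand at chr12:33957671-33959817, and Twist2 (ENSMUSG00000007805.4) on the plus strand at chr1:91801461-91848028. The 250 bases before the RefSeq starts of Hand2 (chr8:57320733-57320982) and Twist1 (chr12:33957421-33957670) are shown from GRCm38.p6, on the plus strand, because these genes changed in opposite directions with loss of Gli3 and because the Hand2 stretch also holds the listed 5′ end of a neighboring gene on the other strand. Capitals mark E-boxes, the motif CANNTG, which reads alike on both strands.
Hand2: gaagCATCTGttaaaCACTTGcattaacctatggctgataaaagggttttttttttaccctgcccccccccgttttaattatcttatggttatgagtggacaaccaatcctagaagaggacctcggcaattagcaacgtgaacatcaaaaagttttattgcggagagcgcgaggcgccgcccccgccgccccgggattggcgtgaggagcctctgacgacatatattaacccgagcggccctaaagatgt
Twist1: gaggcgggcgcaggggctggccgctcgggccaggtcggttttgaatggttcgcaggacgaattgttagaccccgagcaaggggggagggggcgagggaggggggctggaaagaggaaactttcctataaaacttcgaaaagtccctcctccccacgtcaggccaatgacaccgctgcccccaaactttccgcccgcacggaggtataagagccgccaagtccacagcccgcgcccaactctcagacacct
The Hand2 stretch held 2 E-boxes, CATCTG at 246 and CACTTG at 235 bases before the start, and the Twist1 and Twist2 stretches held 0. Of 32536 RefSeq promoters of this length, 66.2% held at least 1 E-box and 31.7% at least 2. The GLI consensus TGGGTGGTC, searched on both strands, was in none of the 3 stretches and in 0.218% of all promoters. These are matches of letters in a short window and not measured binding.

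Of the members that could be tested, Hand2 differed most with loss of Gli3 in anterior E10.5 buds on the log2(TPM + 1) scale. Its level was 22.1, 31.4, 22.8 and 21.0 TPM in the WT libraries and 72.6, 112.4 and 95.6 TPM in Gli3-/-. Every mutant library was above every WT library, and the mean rose from 24.3 ± 4.80 (SD, n = 4) to 93.5 ± 20.0 TPM (SD, n = 3), a ratio of 3.84. On the log2(TPM + 1) scale Hand2 was 1.90 higher (SE 0.17, 95% CI 1.52 to 2.27; limma adjusted p = 0.000544) and ranked at 27 of 15654 genes tested by p-value. Of the 3 members that could be tested at E10.5, 2 were called at an adjusted p under 0.05, Hand2 higher and Twist1 lower, where 4.77% of all genes tested were called. The groups of these 2 members did not overlap, and neither did those of 19.3% of all genes tested. In these bulk samples more cells that make a transcript and more transcript per cell cannot be told apart.

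At E9.25 Hand2 measured 53.4, 31.8 and 30.1 TPM in the WT libraries and 62.1, 90.1, 85.5 and 53.4 TPM in Gli3-/-. The groups touched without overlapping, WT replicate 1 and Gli3-/- replicate 4 being nearly level, and the means were 38.4 ± 12.98 (SD, n = 3) and 72.8 ± 17.8 TPM (SD, n = 4). The difference of 0.92 (SE 0.24, 95% CI 0.39 to 1.45) did not pass the test over all genes (limma adjusted p = 0.189). None of the 4 members was called at this stage by limma, and 0.136% of all genes were called. An unadjusted p under 0.05 was found for 2 of the 4 members and for 3247 of the 14760 genes tested. Hand2 was the only 1 of the 4 whose groups were apart, as were those of 13.3% of all genes. Without WT replicate 1 the Hand2 difference was 1.18 and passed (limma adjusted p = 0.0394), and without WT replicate 2 it was 0.81 (limma adjusted p = 0.380). All tested genes together had a median difference of 0.23 at E9.25, so that relative to the median gene Hand2 was 0.69 higher. The genotype difference of Hand2 was 0.98 larger at E10.5 than at E9.25 (95% CI 0.28 to 1.67), which did not pass as an interaction of stage and genotype (limma adjusted p = 0.133). With size factors, which set the median gene near 0, the interaction was 1.25 and passed (limma adjusted p = 0.0361). Under a replicate block by the title or table numbers it did not pass (limma adjusted p = 0.4997 and 0.472).

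**Figure D1:**
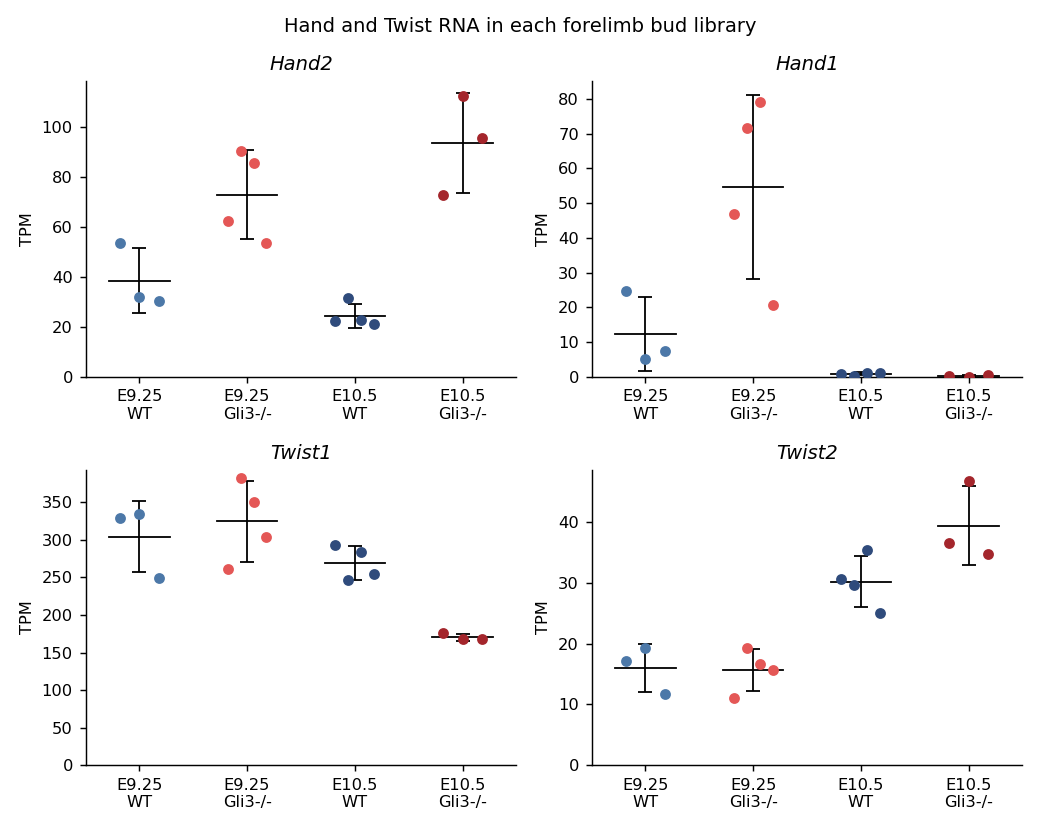
TPM of each member (vertical axis, from 0, with its own scale per panel) in each library, grouped by stage and genotype; points are libraries, horizontal lines are group means and error bars are SD. Hand2 is highest in E10.5 Gli3-/-, Hand1 is near 0 in all E10.5 libraries, Twist1 is lowest in E10.5 Gli3-/- and Twist2 is higher in both E10.5 groups.

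Ordered by mean, Hand2 was highest in E10.5 Gli3-/-, then E9.25 Gli3-/-, then E9.25 WT and lowest in E10.5 WT. Libraries of the first 2 groups overlapped, as did those of the last 2, while both mutant groups lay above both WT groups. From E9.25 to E10.5 Hand2 fell by 0.61 in WT (SE 0.22; limma adjusted p = 0.0451) with overlapping groups. That call was lost without E9.25 WT replicate 1 (a fall by 0.35, limma adjusted p = 0.114) and without each of E10.5 WT replicates 1, 3 and 4 (falls by 0.57, 0.58 and 0.54, limma adjusted p = 0.0997, 0.0923 and 0.109). It was also lost with no filter on low TPM, without a trend in limma and under a replicate block by the title numbers (limma adjusted p = 0.0958, 0.0573 and 0.128). In Gli3-/- the stage difference of Hand2 was 0.37 (95% CI -0.08 to 0.82; limma adjusted p = 0.216).

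The AV026068 gene (ENSMUSG00000100510.6, chr8:57304265-57320859, minus strand) carries the Ensembl ID of Hand2os1, a noncoding transcript also called Upperhand, and has its listed 5′ end 124 bases before the Hand2 start, within the Hand2 stretch printed above. It runs away from Hand2 on the other strand, and both E-boxes of that stretch lie in its listed span. AV026068 measured 2.50, 7.28, 3.14 and 3.66 TPM in E10.5 WT and 15.5, 29.6 and 30.3 TPM in the mutants of that stage. The groups were apart, with a difference of 2.37 (SE 0.31; limma adjusted p = 0.0033), where 7.87% of all genes tested were apart and higher in the mutants. At E9.25 the levels were 11.6, 6.86 and 8.38 TPM in WT and 23.3, 14.4, 17.1 and 12.8 TPM in Gli3-/-, which also did not overlap, and the difference of 0.84 did not pass (limma adjusted p = 0.207). There 9.97% of all genes tested were apart and higher in the mutants. AV026068 shared its order of the 4 groups with Hand2. It fell by 1.00 from E9.25 to E10.5 in WT (limma adjusted p = 0.0240), a call that was kept when E9.25 WT replicate 2 or E10.5 WT replicate 2 was left out and lost without each of the other 5 libraries (limma adjusted p from 0.0534 to 0.0673). In Gli3-/- the stage difference of 0.52 did not pass (limma adjusted p = 0.164), although it reached 0.82 with mutant replicate 1 of E10.5 left out, which passed (limma adjusted p = 0.0302).

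A second noncoding neighbor had another pattern. The gene listed as 5033428I22Rik, known in RefSeq as Hdnr or Handsdown, starts 7601 bases beyond the end of Hand2 on the same strand. Its mean level was 2.20 ± 1.03 TPM in E9.25 WT (SD, n = 3), 4.39 ± 1.07 TPM in E9.25 Gli3-/- (SD, n = 4), 0.0292 ± 0.0583 TPM in E10.5 WT (SD, n = 4) and 0.916 ± 0.348 TPM in E10.5 Gli3-/- (SD, n = 3). Thus 3 of the 4 E10.5 WT libraries listed it at 0. It fell by 1.59 with stage in WT (limma adjusted p = 0.000818) and by 1.49 in Gli3-/- (limma adjusted p = 0.000538), where Hand2 was 0.37 higher without passing. Over other settings its stage differences reached -4.157 in WT and -2.181 in Gli3-/-, so that the falls were not of like size in every setting. The gene passed the filter of both tests only through the E9.25 libraries. It was too low at E10.5 for the genotype test, and the 3 mutant libraries, at 0.519 to 1.17 TPM, all lay above the WT libraries. Of 10 genes listed within 250 kb of Hand2, 7 had at least 1 TPM in a library. The others of these, among them Sap30, Hmgb2 and Galnt7, did not pass between genotypes at either stage.

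Across all 14 libraries, Hand2 was most like Bmp2 (r = 0.94 of log2(TPM + 1)), AV026068 (r = 0.94) and Sap30 (r = 0.93) among 16368 genes, values that share libraries and group differences and describe only these samples. Bmp2, which encodes a signal made in posterior mesenchyme and the apical ridge, had mean levels of 2.77 TPM in E9.25 WT, 3.68 TPM in E9.25 Gli3-/-, 1.59 TPM in E10.5 WT and 4.02 TPM in E10.5 Gli3-/-. At E10.5 it was 0.95 higher in the mutants (limma adjusted p = 0.00998), a call lost under either replicate block (limma adjusted p = 0.0897 by title and 0.0631 by table numbers). Of 11 posterior limb bud genes tested at E10.5, 8 rose in Gli3-/- and 1, Tbx2, fell, where 1.84% of all genes tested were called higher and 2.93% lower. The median difference was 1.19 against -0.02 for all genes. The 8 include Bmp2, and also Shh and Hoxd12, which passed the filter only through the mutants. The Tbx2 call was lost with no filter and under the block by title numbers (limma adjusted p = 0.0604 and 0.112). Shh, the signal whose transcription needs Hand2, was listed at 0 in all 4 E10.5 WT libraries and at 1.17 to 8.67 TPM in the mutants. At E9.25, 1 of 8 posterior genes tested rose, Ptch1, where 0.108% of all genes did, and their median difference was 0.28 against 0.23 for all genes. The members went both ways there. Mean levels in WT and Gli3-/- were 35.9 and 8.33 TPM for Hoxd10, 2.27 and 0.679 TPM for Hoxd11 and 2.54 and 1.14 TPM for Hoxd13, each without overlap of the groups. At that stage 3.36% of all genes tested were apart and lower in the mutants. Tbx2, Tbx3, Grem1 and Bmp2 had higher means in the mutants. The Ptch1 call was lost without WT replicate 3 or mutant replicate 1, 2 or 3 (limma adjusted p up to 0.152). Many of these posterior genes are known responses to HH, and the list was chosen with earlier results of these data known.

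**Figure D2:**
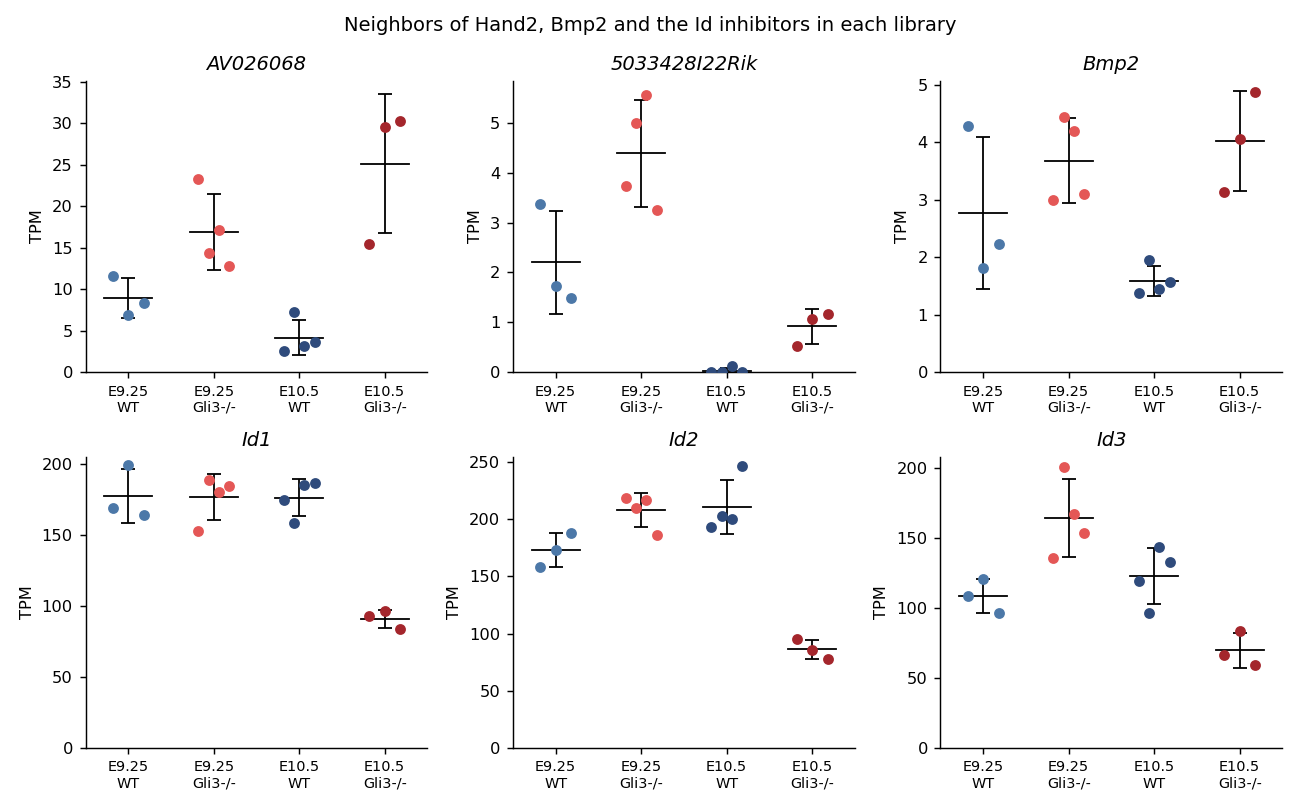
TPM (vertical axis, from 0) of the Hand2 neighbors AV026068 and 5033428I22Rik, of Bmp2 and of the Id genes in each library; points are libraries, lines are means and error bars are SD. AV026068 and Bmp2 are high in E10.5 Gli3-/-, as Hand2 is, 5033428I22Rik is low in both E10.5 groups, and Id1, Id2 and Id3 are lowest in E10.5 Gli3-/-.

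Hand1 had the widest range of the members on the log2(TPM + 1) scale. In E9.25 WT it measured 24.6, 5.04 and 7.35 TPM and in E9.25 Gli3-/- 47.0, 71.6, 79.1 and 20.6 TPM. Mutant replicate 4 lay below WT replicate 1, so the groups overlapped, with means of 12.3 ± 10.7 (SD, n = 3) and 54.6 ± 26.5 TPM (SD, n = 4). The difference of 2.18 (SE 0.53, 95% CI 1.01 to 3.36) was the largest of any member between genotypes at that stage, and it did not pass (limma adjusted p = 0.152). It passed without WT replicate 1 (2.80, limma adjusted p = 0.0219) or without Gli3-/- replicate 4 (2.58, limma adjusted p = 0.0479), and was 1.76 without WT replicate 2 (limma adjusted p = 0.335). The call also changed under a replicate block by the title numbers (2.58, limma adjusted p = 0.0179) and in a single fit of all 14 libraries (2.18, limma adjusted p = 0.0246).

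By E10.5 little Hand1 was left in either genotype. The anterior buds gave 0.832, 0.305, 1.21 and 1.04 TPM in WT and 0.150, 0 and 0.399 TPM in Gli3-/-. These levels were below the filter of 1 TPM in 3 libraries, so that the genotypes were not tested there, and without a filter the difference was -0.63 (limma adjusted p = 0.218). From E9.25 to E10.5 Hand1 fell by 2.59 in WT (SE 0.45; limma adjusted p = 0.00262) and changed by -5.40 in Gli3-/- (SE 0.39; limma adjusted p = 6.85e-06), and no E10.5 library reached any E9.25 library. Hand1 passed the filter of both stage tests and of the interaction model only through its E9.25 libraries, its E10.5 levels being near the floor of the scale. Of the 4 members, 3 were called with stage in WT, where 48.7% of all genes were called, and 3 in Gli3-/-, where 25.0% were called. The stage groups were apart for 2 members in WT and 3 in Gli3-/-, where 53.5% and 35.7% of all genes were apart. Hand1 was the member called for the interaction of stage and genotype, at -2.81 (SE 0.66; limma adjusted p = 0.0402), where 2.13% of all genes were called. An unadjusted p under 0.05 was found in that model for 3 of the 4 members and for 3443 of 16368 genes. That call was kept in 3 of the 14 fits that left out a library and lost in 11, with values from -3.43 to -2.39 and limma adjusted p from 0.00354 to 0.0974.

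Markers of the flank and lateral plate mesoderm, where Hand1 and Hand2 are also made, were measured beside these levels. Of 9 such markers tested at E9.25, 3 rose in Gli3-/- (Foxf1, Gata4 and Osr1, by 3.68, 2.87 and 2.09), where 0.108% of all genes were called higher, the median of the list being 1.16 against 0.23 for all genes. Foxf1 passed the filter only through the mutants. The Foxf1 and Gata4 calls were lost without WT replicate 3 or mutant replicate 1 or 3, and that of Osr1 without WT replicate 3 (limma adjusted p up to 0.0923, 0.0923 and 0.0734). The summed level of the 10 markers was 112.1, 90.5 and 67.8 TPM in E9.25 WT and 157.2, 236.6, 229.0 and 143.1 TPM in E9.25 Gli3-/-. Mutant replicates 2 and 3, highest in these markers, were also highest in Hand1 and Hand2, and WT replicate 1 was highest of its group in all of these. Not every marker went this way: Tbx18 had a mean of 5.42 TPM in E9.25 WT and 4.20 TPM in E9.25 Gli3-/-. In WT from E9.25 to E10.5, where Hand1 fell, the mean of Tbx18 went from 5.42 to 38.95 TPM and that of Osr1 from 1.41 to 6.08 TPM. At E10.5 the sums were 49.8 to 69.2 TPM in WT and 32.1 to 59.6 TPM in Gli3-/-, and overlapped, while Hand2 was higher in the mutants. The largest part of the sum at E9.25 was Hoxb6, with means of 55.3 TPM in WT and 63.7 TPM in Gli3-/-. At E10.5 it was Tbx18, at 38.95 and 29.7 TPM, so that sums of the stages differ in make-up. Foxf1, Gata4 and Gata5 each averaged at most 0.488 TPM at E10.5. Single markers differed in direction there, with mean levels in WT and Gli3-/- of 6.08 and 13.2 TPM for Osr1, 0.108 and 0.597 TPM for Isl1 and 11.99 and 1.16 TPM for Hoxb6. Every WT library had Foxf2 at 0, and those of E10.5 had Wt1 at 0. Cardiac muscle markers, for the other tissue rich in Hand genes, summed to 20.9 to 31.8 TPM in E9.25 WT, 27.6 to 43.7 TPM in E9.25 Gli3-/- and 1.42 to 3.11 TPM at E10.5, with Nkx2-5 at 0 in every library. Most of this sum at E9.25 was Tnni1, with means of 21.7 TPM in WT and 28.05 TPM in Gli3-/-. Myh6 and Myh7 did not exceed 0.0681 TPM in any library. Some markers of surface ectoderm and endothelium also had higher means in E9.25 Gli3-/-, with 35.3 and 96.7 TPM in WT and Gli3-/- for Krt8, 35.2 and 103.9 TPM for Krt18 and 13.95 and 29.9 TPM for Cdh5. Others of these lists were near level, with 31.1 and 32.4 TPM for Epcam, 17.7 and 18.7 TPM for Trp63 and 13.4 and 12.3 TPM for Erg. The part of flank or other tissue in the Hand1 and Hand2 levels at E9.25 was not tested.

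**Figure D3:**
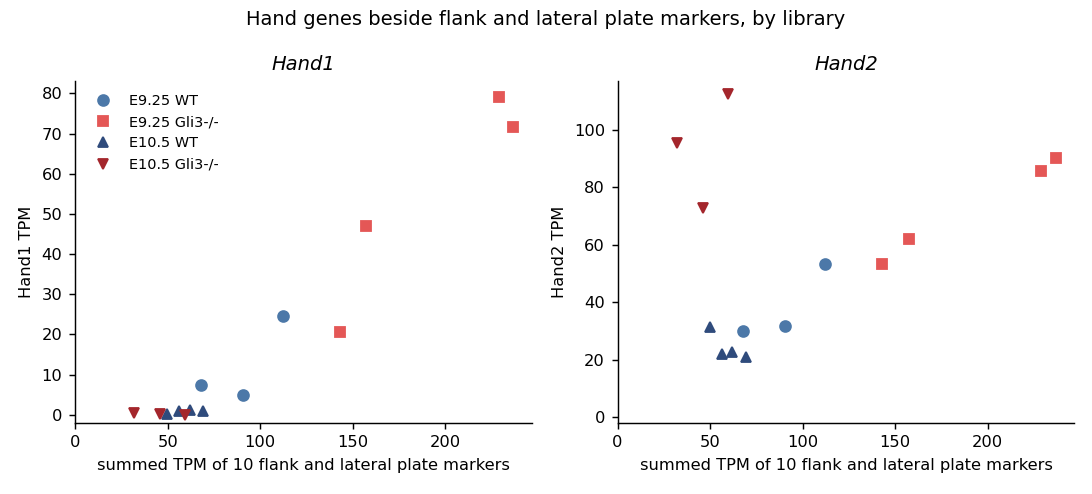
Hand1 and Hand2 TPM (vertical axes) against the summed TPM of 10 flank and lateral plate markers (horizontal axis), with 1 point per library. The largest part of the sum was Hoxb6 at E9.25 and Tbx18 at E10.5. The E9.25 libraries spread along both axes, from 67.8 to 236.6 TPM of markers, while the E10.5 Gli3-/- libraries combine high Hand2, 72.6 to 112.4 TPM, with marker sums of at most 59.6 TPM.

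The genes most like Hand1 over the 14 libraries were Masp1, Gata6 and Crb2 (r = 0.99 each). Gata6, a factor of heart and lateral plate, averaged 12.03 TPM in E9.25 WT, 30.6 TPM in E9.25 Gli3-/-, 1.47 TPM in E10.5 WT and 0.819 TPM in E10.5 Gli3-/-. Tcf21, another mesodermal bHLH gene, had the same order of the E9.25 groups, at 0.694 to 1.47 TPM in WT and 3.43 to 5.65 TPM in Gli3-/-. It was the only 1 of 6 other mesodermal bHLH genes called there (1.53 higher, limma adjusted p = 0.0380), where 0.108% of all genes were called higher. Tcf21 passed the filter only through the mutants. Its call was lost in 5 of the 7 fits that left out a library, those without WT replicate 2 or 3 or without Gli3-/- replicate 1, 2 or 3 (limma adjusted p from 0.0725 to 0.238). At E10.5 Tcf21 was at 0 in WT and at most 0.272 TPM in Gli3-/-. Of the 13 genes listed within 250 kb of Hand1, 6 had at least 1 TPM in a library. Of these 6, 1 passed between genotypes, Larp1 at E10.5 (0.26 higher, limma adjusted p = 0.0495), where 4.77% of all genes were called at E10.5 and 0.136% at E9.25. The Larp1 call was lost whichever library was left out (limma adjusted p from 0.0652 to 0.165).

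Twist1 was the most abundant member in every library. It measured 329.0, 334.2 and 249.4 TPM in E9.25 WT and 260.5, 382.2, 350.8 and 303.5 TPM in E9.25 Gli3-/-. The groups overlapped, and the difference was 0.09 (SE 0.16, 95% CI -0.27 to 0.45; limma adjusted p = 0.733), while against the median gene it was -0.14, so that the data set no direction at this stage. Anterior E10.5 WT buds had 292.7, 246.5, 283.1 and 253.9 TPM, and E10.5 Gli3-/- buds had 175.7, 167.4 and 167.8 TPM. Every mutant library was below every WT library, and the mean fell from 269.1 ± 22.3 (SD, n = 4) to 170.3 ± 4.65 TPM (SD, n = 3). Twist1 fell by 0.65 (SE 0.08, 95% CI -0.82 to -0.48; limma adjusted p = 0.00161), the 88th gene by p-value, opposite to Hand2. The summed level of 8 limb mesenchyme markers was also lower, at 767.2 to 937.4 TPM in E10.5 WT and 570.2 to 647.0 TPM in Gli3-/-. Of the 8, Prrx1, Prrx2, Msx1, Meis1 and Meis2 were called lower and Fgf10 higher by limma (3 to 5 lower over the alternatives), where 2.93% of all genes were called lower and 1.84% higher, and the part of this shift in the Twist1 level was not tested.

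With stage Twist1 fell by 0.91 in Gli3-/- (SE 0.13; limma adjusted p = 0.000771), with the groups apart, and changed by -0.17 in WT (95% CI -0.44 to 0.11; limma adjusted p = 0.268), which passed without E9.25 WT replicate 3 (a fall by 0.30, limma adjusted p = 0.0411). After scaling by size factors, which set the median gene near 0, the WT value was -0.53 and passed (limma adjusted p = 0.0257). The genotype difference was 0.74 lower at E10.5 than at E9.25 (95% CI -1.14 to -0.34), just above the threshold as an interaction (limma adjusted p = 0.0547), and it passed without E9.25 WT replicate 1 (-0.81, limma adjusted p = 0.0301) or E9.25 Gli3-/- replicate 1 (-0.84, limma adjusted p = 0.0199). With size factors it was -0.45 (limma adjusted p = 0.213), and under a replicate block by the title or table numbers it did not pass either (limma adjusted p = 0.267 and 0.288). By mean level, E9.25 Gli3-/-, E9.25 WT and E10.5 WT followed each other with overlap between neighbors, and E10.5 Gli3-/- lay below all.

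Comtd1, Vstm2b and Hoxc4 were most like Twist1 (r = 0.96, 0.95 and 0.94). The only gene listed within 250 kb of Twist1, Ferd3l, another bHLH gene 28361 bases away, did not exceed 0.205 TPM in any library.

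Levels of Twist2 were 17.1, 19.2 and 11.7 TPM in E9.25 WT and 11.0, 19.2, 16.7 and 15.7 TPM in E9.25 Gli3-/-, with no difference beyond the spread (-0.02, 95% CI -0.53 to 0.48; limma adjusted p = 0.949). In E10.5 WT they were 30.6, 29.7, 35.3 and 25.1 TPM and in E10.5 Gli3-/- 36.5, 46.7 and 34.7 TPM. The E10.5 groups overlapped, and the mutants were 0.37 higher (95% CI 0.07 to 0.67) without passing (limma adjusted p = 0.162). A replicate block by the table numbers gave 0.38, which passed (limma adjusted p = 0.0478), and a block by the title numbers gave 0.29, which did not (limma adjusted p = 0.502). Stage separated the libraries in both genotypes: Twist2 rose by 0.89 in WT (SE 0.18; limma adjusted p = 0.00513) and by 1.29 in Gli3-/- (SE 0.18; limma adjusted p = 0.000679). In WT, size factors brought the rise to 0.54, which did not pass (limma adjusted p = 0.0649). The interaction was 0.39 (limma adjusted p = 0.388). Most like Twist2 were Pea15a, Robo4 and Limd2 (r = 0.97, 0.97 and 0.96).

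A noncoding gene on the other strand, Gm29100, overlaps the Twist2 start at up to 3.28 TPM, and Gm29101 lies inside Twist2 on the same strand at up to 2.34 TPM. Whether reads were assigned by strand is not stated, so a small part of these levels could be shared. The deposited TPM of Twist2 is also high for its coverage. Scaled coverage put Twist2 at 2.28%, 2.14%, 4.85% and 10.1% of Twist1 in E9.25 WT, E9.25 Gli3-/-, E10.5 WT and E10.5 Gli3-/-, where TPM put it at 5.21%, 4.80%, 11.2% and 23.1%. By TPM, Twist2 was above Hand2 in E10.5 WT (30.2 ± 4.20 against 24.3 ± 4.80 TPM, SD, n = 4 each), and by scaled coverage it was below (18.1 against 33.7), so that the order of these genes is not settled, while the rise with stage stood on both scales.

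**Figure D4:**
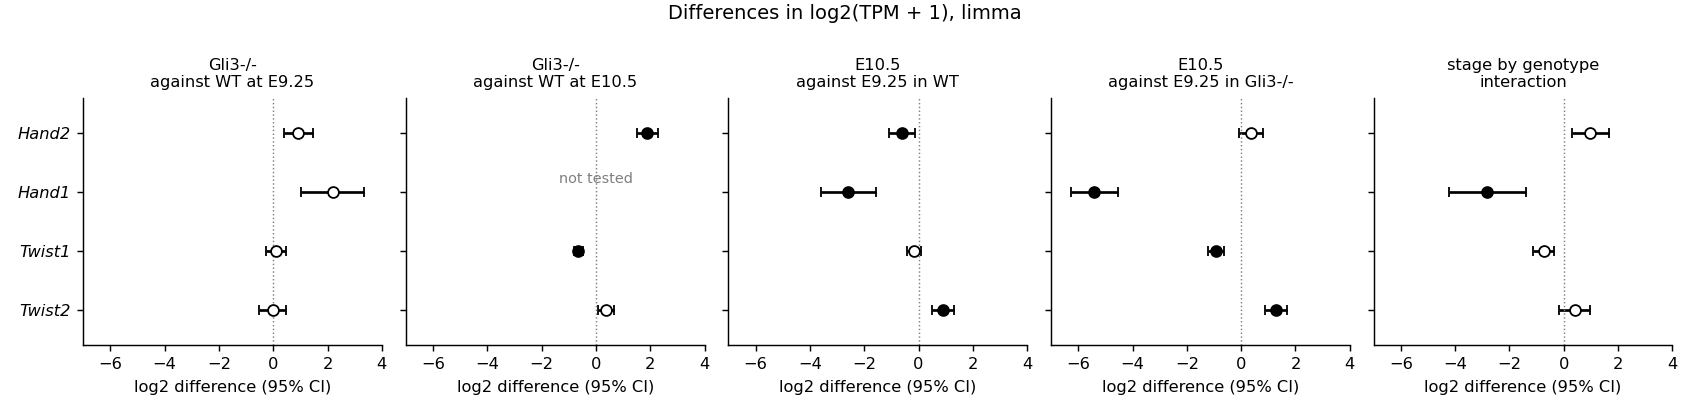
Differences in log2(TPM + 1) with 95% confidence intervals (horizontal axis) for each member in each comparison, from limma; filled points had an adjusted p under 0.05. In E10.5 Gli3-/- against WT, Hand2 stands at 1.90 and Twist1 at -0.65, and Hand1 has the widest intervals, with stage differences of -2.59 and -5.40.

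Because Hand2 and Twist1 can pair with each other and with the same partners, their relative RNA levels were set side by side within each library, as a description without a test. Hand2 RNA was 16.2%, 9.51% and 12.1% of Twist1 RNA by TPM in E9.25 WT and 23.8%, 23.6%, 24.4% and 17.6% in E9.25 Gli3-/-. In E10.5 it was 7.55%, 12.8%, 8.05% and 8.25% in WT and 41.3%, 67.1% and 56.9% in Gli3-/-. The genotypes did not overlap at either stage, with means of 12.6% ± 3.39 (SD, n = 3) and 22.3% ± 3.19 (SD, n = 4) at E9.25 and of 9.15% ± 2.42 (SD, n = 4) and 55.1% ± 12.99 (SD, n = 3) at E10.5. Both the higher Hand2 and the lower Twist1 enter the value of the E10.5 mutants. Hand1 stood at 28.8% of Hand2 in E9.25 WT, 71.5% in E9.25 Gli3-/-, 3.76% in E10.5 WT, and 0.208% in mutants of that stage, where 1 library had Hand1 at 0 and the mean without replicate 2 or 3 was 0.312% or 0.103%, so that HAND family RNA at E10.5 was almost wholly Hand2. Twist2 as a share of Twist1 was higher at E10.5, and within E10.5 higher in the mutants (20.7% to 27.9% against 9.87% to 12.5%). The lower Twist1 enters this value too. Mean TPM in E10.5 mutants over WT was 0.633 for Twist1 and 1.30 for Twist2, whose difference did not pass (limma adjusted p = 0.162).

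**Figure D5:**
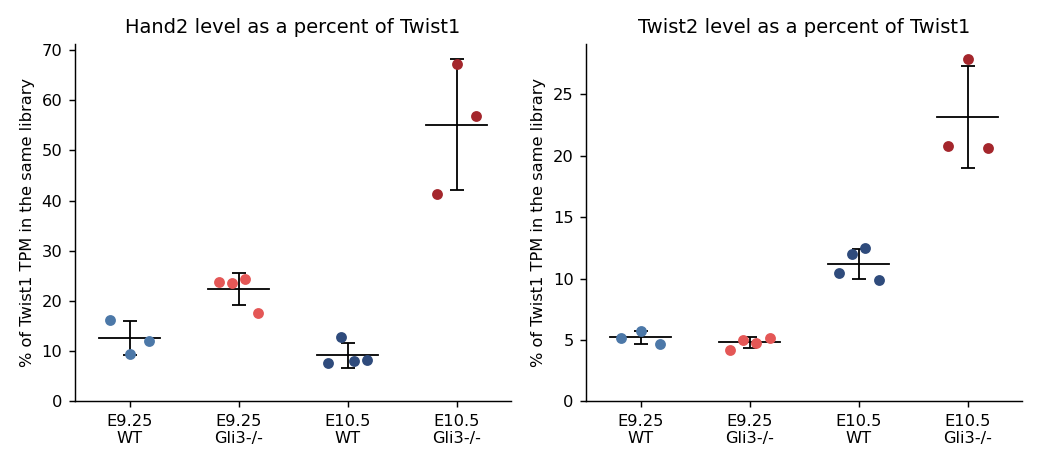
Hand2 and Twist2 as a percentage of Twist1 TPM in the same library (vertical axes, from 0); points are libraries, lines are means and error bars are SD. Hand2 reaches 41.3% to 67.1% of Twist1 in E10.5 Gli3-/- and at most 24.4% in any other library.

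Of 7 genes for partners and inhibitors of these factors, the E proteins Tcf3, Tcf4 and Tcf12 and the inhibitors Id1, Id2, Id3 and Id4, 3 fell in E10.5 Gli3-/- and 0 rose by limma, against 2.93% of all genes called lower, and all 3 were Id genes. Id1 was 158.9 to 186.6 TPM in E10.5 WT and 84.1 to 96.2 TPM in Gli3-/- (fell by 0.95, limma adjusted p = 0.000424). Id2 was 193.6 to 246.4 TPM in WT and 77.96 to 95.03 TPM in Gli3-/- (fell by 1.28, limma adjusted p = 0.000335). Id3 was 96.3 to 143.1 TPM in WT and 58.9 to 83.5 TPM in Gli3-/- (fell by 0.81, limma adjusted p = 0.0166), a call lost without E10.5 WT replicate 4 or Gli3-/- replicate 1 or 3 (limma adjusted p from 0.0564 to 0.0725), with no filter (0.0775) and under the block by title numbers (0.191). The groups were apart for each of the 3, as were those of 19.3% of all genes. Tcf3, Tcf4 and Tcf12 differed by 0.12, 0.17 and -0.13 at E10.5 and did not pass (limma adjusted p = 0.544, 0.361 and 0.442), at mean WT levels of 235.6, 118.4 and 195.9 TPM.

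At E9.25 none of the 7 was called by limma, where 0.136% of all genes were called, the Id1, Id2 and Id3 differences being -0.01, 0.26 and 0.59. The interaction of stage and genotype was called for Id1, Id2 and Id3 (-0.94, -1.55 and -1.40, limma adjusted p = 0.00326, 0.000176 and 0.00477), where 1.65% of all genes were called lower. With size factors, the interaction of Id1 was -0.65 and did not pass (limma adjusted p = 0.0642). Of 8 other settings, 5 kept the Id1 interaction and 7 that of Id3, with both lost under the block by title number (limma adjusted p = 0.136 and 0.135). Tcf4 rose with stage in both genotypes, by 1.72 in WT and 1.60 in Gli3-/- (limma adjusted p = 0.00192 and 2.63e-05), and Tcf3 by 0.48 in WT (limma adjusted p = 0.00992). The genes for kinase and phosphatase subunits that set the phosphorylation of HAND and TWIST proteins, Prkaca, Prkacb and Ppp2r5d, did not pass between genotypes at either stage, and all 3 rose with stage in WT, by 0.63, 0.79 and 0.39, as did 38.1% of all genes, the median gene being 0.34. With stage in WT, 5885 genes were called higher and 1635 lower, and with size factors 3073 higher and 3334 lower. With size factors Tcf3, Prkaca and Ppp2r5d did not pass with stage in WT (0.11, 0.27 and 0.03). The Ppp2r5d call was also lost without E9.25 WT replicate 3 or E10.5 WT replicate 1, 3 or 4 (limma adjusted p up to 0.0703). Of 7 other mesodermal bHLH genes tested at E10.5, 0 were called between genotypes by limma, where 4.77% of all genes were called.

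Genes of the FGF loop between mesenchyme and apical ridge, in which Twist1 is needed, rose in 5 of 9 cases and fell in 1 at E10.5 with loss of Gli3, the median being 0.80 against -0.02 for all genes, of which 1.84% were called higher and 2.93% lower. Fgf4, one of these genes, passed the filter only through the mutants. Fgf10, the mesenchymal signal, went from 12.2 ± 1.32 (SD, n = 4) to 26.2 ± 0.976 TPM (SD, n = 3), 1.05 higher (limma adjusted p = 0.000643), or 0.65 with scaled coverage in place of TPM (limma adjusted p = 0.0191). The gene that fell was Fgfr2, by 0.94 (limma adjusted p = 0.00498), which encodes a receptor for FGF10, a call lost in a single fit of all 14 libraries (limma adjusted p = 0.129). Of 10 genes of the Snail and Zeb program of mesenchyme, to which Twist1 also belongs, Zeb1 rose by 0.39 and Snai2 fell by 0.49 (limma adjusted p = 0.0299 and 0.0180), where 4.77% of all genes were called. The Zeb1 call was lost in 5 of the 7 fits that left out a library, kept only without WT replicate 2 or 4, and the Snai2 call was lost without mutant replicate 2 or 3 (limma adjusted p up to 0.113 and 0.0858). Of 9 other settings, 4 kept the Zeb1 call and 6 the Snai2 call (limma adjusted p up to 0.571 and 0.174).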

How the data were processed

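RNA-seq tables of 14 libraries were used, out of 67 samples of the series. RNA was isolated in TRIzol, read from a single end over 100 bases, and mapped with HISAT2 by the authors. The deposited tables give coverage as a signal, FPKM and TPM per gene ID, and the tool that made these values is not given in the sources used here. The labels name mm10. Depth was estimated from coverage and FPKM. The authors tested counts with DESeq2. These tables hold no counts, so limma 3.58.1 in R 4.3.3 (eBayes with a trend) was run on log2(TPM + 1), a scale that understates changes of low genes, over genes with at least 1 TPM in at least 3 libraries of a comparison, two-sided, with Benjamini-Hochberg adjustment over all genes tested and a threshold of 0.05. Genotypes were compared within stage, stages within genotype, and the interaction in all 14 libraries. The test was checked on simulated data with independent noise in each library. Of 100 genes changed by 1 on the log2 scale, it called 57 between genotypes at E9.25, 85 at E10.5 and 50 for the interaction. Of the gene IDs, 33122 matched a RefSeq symbol, 4 of 4 members among them, and promoters were found for 3. The text names the members, the genes of lists by role, neighbors within 250 kb and the 3 genes most like each member. Members and lists were chosen with earlier results of these data known. Replicates are pools of embryos, with no batch given. Other steps used Python 3.11.15, pandas 2.3.3, NumPy 2.4.6 and matplotlib 3.10.9.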

Additional observations from a re-analysis of the deposited data

Results flagged for a closer look

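In 2 libraries the level of Hand2 relative to Twist1 stood apart from the other 3 of the group. In E9.25 Gli3-/- replicate 4 Hand2 was 17.6% of Twist1, against 23.6% to 24.4% in the others. In E10.5 WT replicate 2 it was 12.8%, against 7.55% to 8.25%, and AV026068, next to Hand2, was also highest of that group there. Posterior genes did not all go the same way in that library, with Hoxd13 at 13.5 TPM against 2.53 to 5.65 TPM in the others, Grem1 at 25.8 against 14.8 to 16.8 TPM, and Tbx2 at 8.18 against 13.1 to 18.6 TPM. Of 14 checks, which covered several measures in the same 2 groups of 4 libraries and so were not independent, these 2 passed Dixon's criterion, which chance gives in about 1 in 20 single checks.

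The interaction of stage and genotype for Hand1 was -2.81 in the model of all 14 libraries (limma adjusted p = 0.0402). Hand1 was near 0 in both genotypes at E10.5, below the filter there, and its E9.25 difference alone was 2.18. The call was lost in 11 of 14 fits that left out a library and under both replicate blocks (limma adjusted p = 0.132 and 0.118).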

How the results depend on the processing

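Of 320 alternative values for 19 tests of the members, 280 kept direction and side of the threshold, 22 lost and 12 gained a call and 6 reversed. Hand2 (1.75 to 2.06) and Twist1 (-0.69 to -0.61) between genotypes at E10.5 passed in every alternative run, as did Twist1 and Twist2 with stage in Gli3-/-. Hand1 with stage in both genotypes also passed in every alternative run, but it passed the filter of these tests only through its E9.25 libraries. Where calls changed, the cause was not tested. With no filter, Hand2 with stage in WT was -0.61 (limma adjusted p = 0.0958) and the Hand1 interaction -2.81 (0.108). Without a trend, Hand2 with stage in WT was -0.61 (0.0573). With 0.1 in place of 1 added to TPM before the log, Hand1 with stage was -3.50 in WT and -7.71 in Gli3-/-, and its interaction was -4.21. Size factors gave Twist1 -0.16 at E9.25 and, with stage in WT, -0.53 for Twist1 (0.0257) and 0.54 for Twist2 (0.0649), with a Hand2 interaction of 1.25 (0.0361). They brought the median gene of 0.23 at E9.25 to 0.01, and that of 0.34 with stage in WT to 0.02. A single fit of all 14 libraries gave 2.18 for Hand1 (0.0246) and 0.92 for Hand2 (0.0427) at E9.25. Scaled coverage, added after seeing the data, gave Twist2 0.00763 at E9.25.

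Leaving out each library gave, at E9.25, 1.76 to 2.80 for Hand1, 0.77 to 1.18 for Hand2, -0.047 to 0.19 for Twist1 and -0.22 to 0.12 for Twist2, where the Twist2 sign turned without WT replicate 1 or 2 or Gli3-/- replicate 1. With stage in WT it gave -3.01 to -1.97 for Hand1, -0.75 to -0.35 for Hand2 and -0.30 to -0.094 for Twist1. For the interaction it gave -3.43 to -2.39 for Hand1 and -0.84 to -0.61 for Twist1.

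Genes called between genotypes at E10.5 numbered 747, and 391 with no filter, 386 in a fit of all 14 libraries. At E9.25 they numbered 20, and 0 with no filter by limma (3542 with an unadjusted p under 0.05), 796 in a fit of all 14 libraries and 13 by scaled coverage. Leaving out a library gave 301 to 680 at E10.5 (fewest without Gli3-/- replicate 3), 2 to 196 at E9.25 (most without WT replicate 1), 5139 to 8305 with stage in WT, 2129 to 4326 with stage in Gli3-/- and 150 to 1433 for the interaction (most without E9.25 WT replicate 1).

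Replicate numbers were taken as no pairing. By the title numbers, same-numbered libraries did not deviate together, with mean r of -0.18 within E9.25 and -0.05 within E10.5. Other pairs had 0.06 and 0.02. By the E10.5 numbering of the deposited tables, same-numbered libraries did so weakly, with a mean r of 0.19 (0.05 to 0.32) against -0.06 for other pairs. Whether libraries were paired by those numbers is not settled, so blocks by both numberings are given. At E9.25 0 of 6 libraries were most like their own number, and at E10.5 2 of 6, or 4 of 6 by the table numbers. A replicate block by the title numbers gave 164 calls between genotypes at E10.5, 66 at E9.25, 4699 with stage in WT and 42 for the interaction, with Hand1 at 2.58 at E9.25 (limma adjusted p = 0.0179), Hand2 at -0.54 with stage in WT (0.128) and a Hand1 interaction of -3.16 (0.132). A block by the table numbers gave 498 calls between genotypes at E10.5, 4444 with stage in Gli3-/- and 59 for the interaction, with a Hand1 interaction of -3.21 (0.118), and Twist2 at 0.38 between genotypes at E10.5 (0.0478).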
